A study of Homo sapiens with 4 samples.

Results

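The mRNAs described here encode the proteins that mark replication origins, open the DNA and run the replication fork. They were taken by gene symbol from a list of 50 genes that was drawn up with earlier results of these data known, though its rule uses no measured value, and all 50 were found among the 60676 genes of the deposited table. Native nuclear RNA immunoprecipitation was applied to U2OS, an established human osteosarcoma cell line, to find mRNAs recovered with LC3B. In this assay the lysate is not crosslinked, and the RNA that comes down with an antibody is sequenced. The 4 libraries were a pull-down with an LC3B antibody, its negative control with IgG, and the LC3B input and IgG input, both without antibody. All 4 came from the same line, with no treatment named in the labels, and were made from polyadenylated RNA with SMART-Seq v4, a kit for very small amounts of RNA. Each group holds a single library, so differences cannot be set against the spread of replicates, and no p-value is given.

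A replication origin is bound by the origin recognition complex (ORC), which together with CDC6 and CDT1 loads the ring-shaped MCM2-7 helicase on DNA before S phase. The kinase CDC7 with its activator DBF4 then allows CDC45 and GINS to join the helicase, and the strands are separated. DNA polymerase alpha with primase starts each new strand, the loader RFC places the sliding clamp PCNA, and polymerases delta and epsilon extend it. RPA coats single-stranded DNA, FEN1 and LIG1 finish the lagging strand, and ribonucleotide reductase supplies deoxynucleotides. Many of these genes are transcribed around the entry into S phase under control of E2F transcription factors.

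A shared promoter sequence was looked for, since the choice of members did not use it. RefSeq promoter windows (GRCh38.p14, 250 bases before to 50 after the gene's start) were at hand for 44 of the 50 genes. They were searched on both strands for the E2F-type letters TTTCCCGC, TTTGGCGC, TTTCGCGC and TTTGCCGC, whose matches may overlap. Such a match was present in 22 of the 58 windows of these genes (37.9%), against 1164 of 35116 windows of all genes (3.31%). CCAAT, on either strand, was present in 55.2% of the members' windows and 34.6% of all windows. The stretches below belong to the genes that differed most between the pull-downs and had an E2F-type match before the start. Capitals mark the matches, which begin 152 bases before the RefSeq start in MCM6, 12 in ORC3, 53 in POLA2, 18 in POLE and 35 in CDT1, on the strand of the gene.
MCM6, chr2:135876510-135876607, minus strand: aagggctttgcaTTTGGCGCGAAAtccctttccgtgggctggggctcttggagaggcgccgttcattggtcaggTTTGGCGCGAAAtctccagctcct
ORC3, chr6:87590111-87590134, plus strand: ccgcgagggcgcGCGGGAAAtccc
POLA2, chr11:65261897-65261928, plus strand: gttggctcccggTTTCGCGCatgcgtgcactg
POLE, chr12:132687343-132687372, minus strand: ctgggtgggagcGCGCCAAAtttctcccct
CDT1, chr16:88803742-88803773, plus strand: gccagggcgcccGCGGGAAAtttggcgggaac

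The 98 bases shown for MCM6 hold 4 overlapping matches that form 2 identical blocks of capitals, and the other stretches hold 1 match each. As described further on, POLA2, POLE and CDT1 were called higher with LC3B than with IgG, while MCM6 and ORC3 were called lower. Among the 10 members called higher, 4 had a match and 6 had none, and both members called lower had one, against 16 of the 32 other members with a window and 22 of all 44. The match is a feature of the DNA of these genes, and nothing is drawn from it about recovery of the RNA.

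Total counts ranged from 10000914 in the IgG pull-down to 10886762 in the IgG input. Mitochondrial genes took 0.774% of the LC3B pull-down and 1.76% of the IgG pull-down, against 20.8% of the LC3B input and 22.8% of the IgG input. Levels are therefore given in CPM, each gene's share of the counts outside chromosome MT. Those totals were 10375786 in the LC3B pull-down, 9824400 in the IgG pull-down, and 8542486 and 8404123 in the LC3B and IgG inputs. Of the 15431 genes whose mean over the libraries reached 1 CPM, 3043 (19.7%) had 0 reads with IgG, against 0.402% with LC3B. The mesenchymal markers VIM, COL1A1, SPARC and RUNX2 were read in every library, at 8.35 CPM or more. Of 5 markers of other cell types, PTPRC, HBB, ALB and PECAM1 were below 1 CPM throughout, and EPCAM lay between 15.0 and 25.8 CPM. MAP1LC3B, which encodes LC3B, stood at 170 CPM in the LC3B pull-down, 282 in the IgG pull-down, and 254 and 269 in the LC3B and IgG inputs. GAPDH and ACTB, a glycolytic enzyme and a cytoskeletal actin, were at 8574 and 12648 CPM in the LC3B pull-down and at 6593 and 7136 CPM in the IgG pull-down.

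As a group, replication mRNAs took nearly the same share of the counts outside chromosome MT in each library, while single members differed widely between the pull-downs. Of those counts their summed reads made up 0.588% in the LC3B pull-down (95% exact binomial interval 0.583 to 0.593) and 0.583% in the IgG pull-down (0.579 to 0.588). The shares were 0.595% (0.590 to 0.600) in the LC3B input and 0.592% (0.587 to 0.597) in the IgG input. Of all counts, chromosome MT included, they made up 0.584% and 0.573% in the LC3B and IgG pull-downs, against 0.471% and 0.457% in the inputs. The libraries average over a culture, so fewer cells expressing an mRNA and less of it per cell cannot be told apart. Intervals here and below cover counting error only and treat reads as independent. Amplified reads are not independent molecules, so the intervals may be too narrow. All 50 members passed the filter of 1 CPM, and 48 had reads in every library. The exceptions, ORC1 and GINS1, had 0 reads in the IgG pull-down, where 3 reads correspond to 0.305 CPM.

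**Figure D1:**
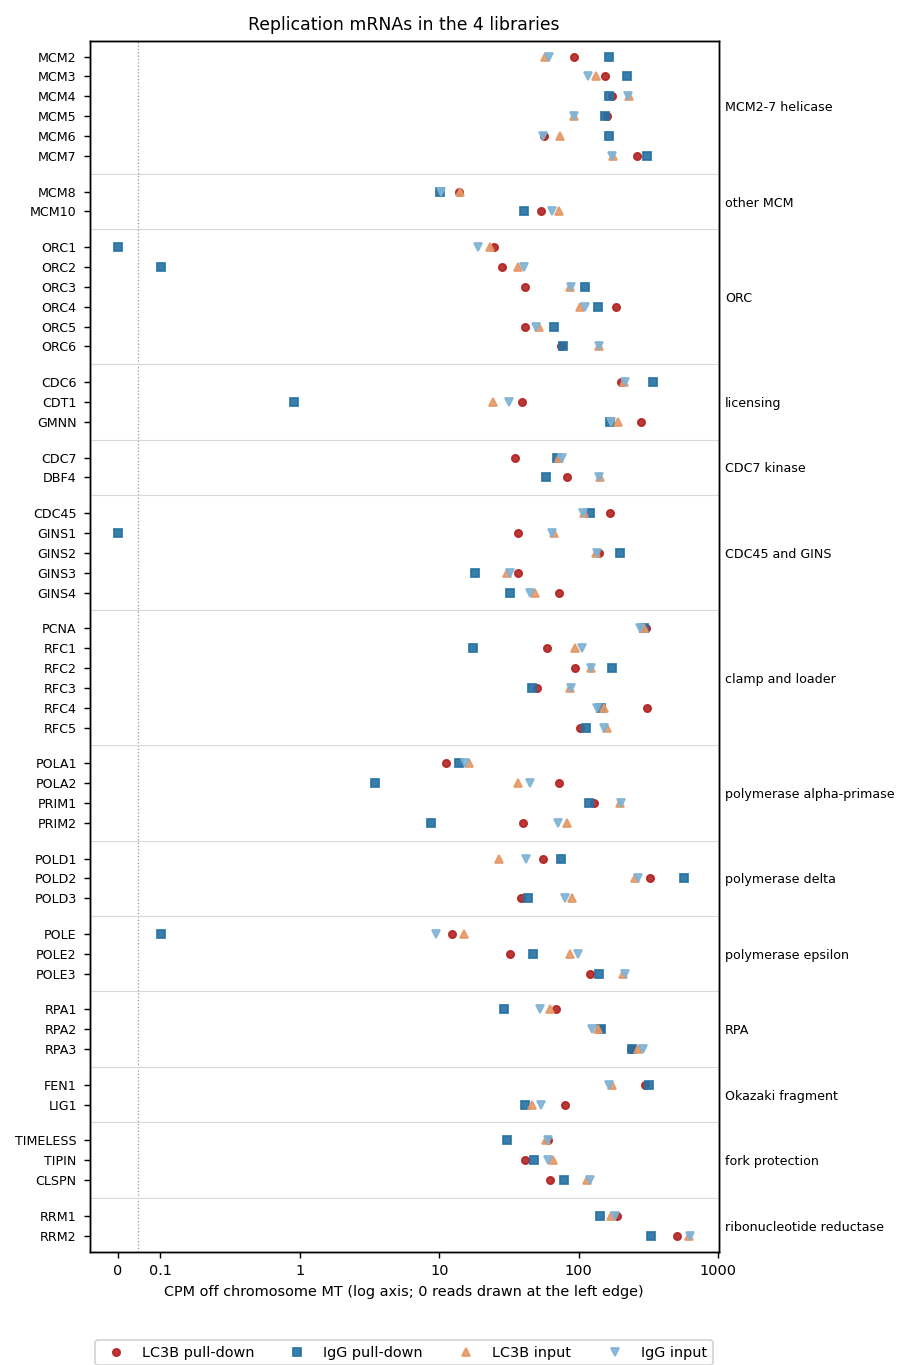
Level of each of the 50 mRNAs (rows, grouped by complex) in CPM outside chromosome MT on a log axis, with 1 point per library and genes with 0 reads drawn at the left edge. The inputs' points lie close together for most members, and 5 IgG pull-down points (ORC1, GINS1, ORC2, POLE and CDT1) fall below 1 CPM.

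A fold counted as higher if its whole 95% counting interval lay at 2 or above, and as lower if the whole interval lay at 0.5 or below. With LC3B relative to IgG 10 of the 50 mRNAs (20%) were called higher, against 33.8% of the 15431 genes, and 2 (4%) were called lower, against 9.45%. From 10 CPM in the inputs upwards, where all members lay, calls higher became rarer with abundance among all genes. At 10 to 30 CPM 3 of 5 members were called higher, against 37.4% of genes, at 30 to 100 CPM 6 of 22, against 20.9%, and at 100 CPM and over 1 of 23, against 8.56%. Both members called lower were among the 22 at 30 to 100 CPM, where 6.56% of genes were. At 10 to 30 CPM it was 0 of 5 members, against 8.10% of genes, and at 100 CPM and over 0 of 23, against 7.21%. Within these classes the members' shares were thus not uniformly below those of all genes. The median log2 ratio of the members was 0.06, against 0.41 for all genes, and turned negative with TMM totals, at -0.079 against 0.28 for all genes. Among genes of at least 5 CPM the median of all genes was 0.18. Between the inputs, which had no antibody, 0 members were called higher (0.136% of all genes) and 0 lower (0.156%), with folds from 0.635 for POLD1 to 1.59 for POLE. The fold between the pull-downs exceeded this range for 15 members and fell below it for 8, against 44.9% and 21.8% of all genes. The range is that of the members, whereas all genes include scarcer ones, whose folds carry more counting error.

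**Figure D2:**
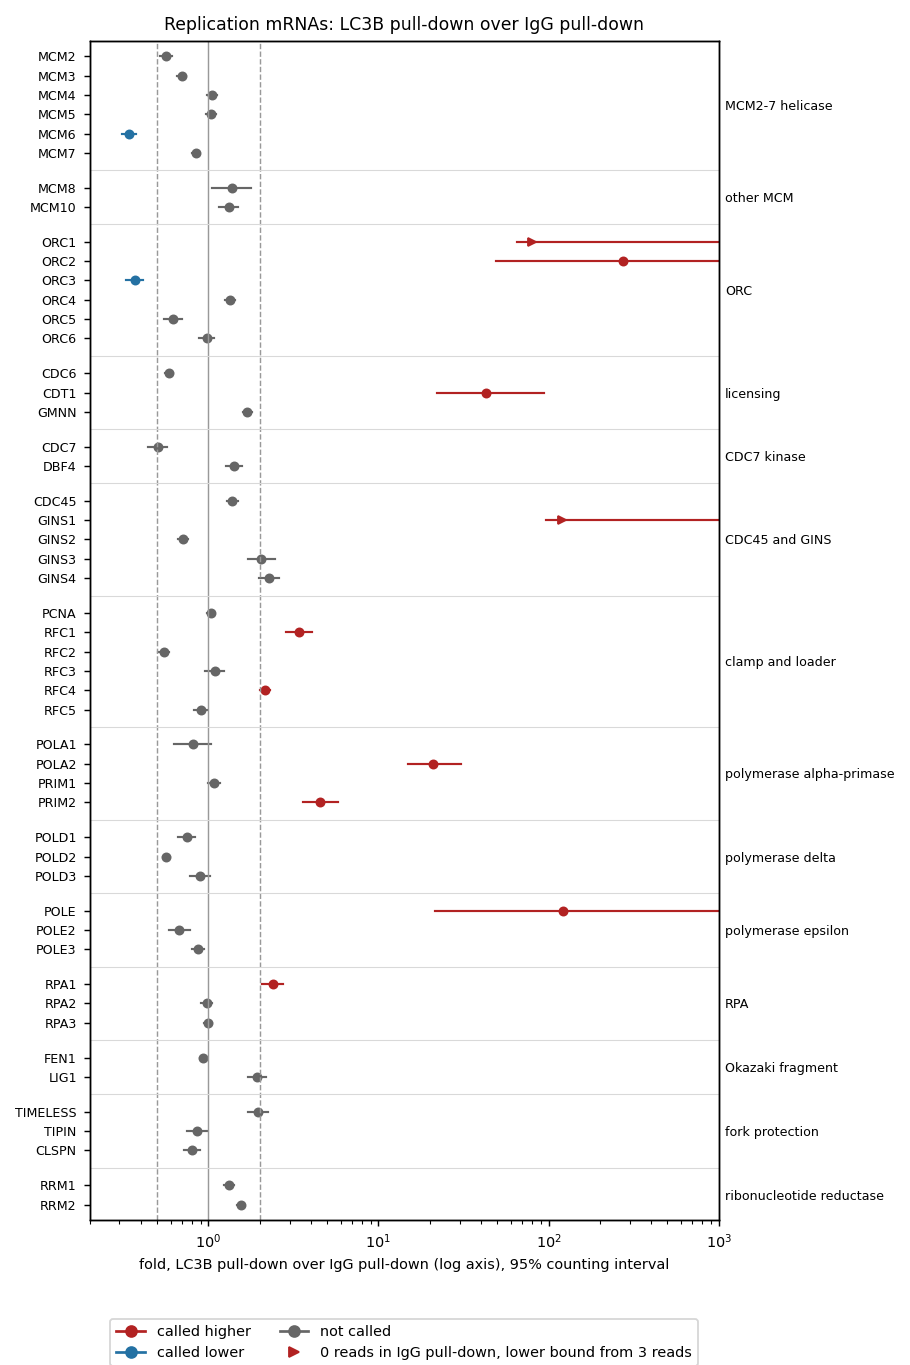
Fold of each mRNA in the LC3B pull-down over the IgG pull-down on a log axis, with its 95% counting interval; triangles are lower bounds for genes with 0 reads in the IgG pull-down, and dashed lines mark 0.5 and 2. The 10 members called higher spread over 7 complexes, and MCM6 and ORC3 are the 2 called lower.

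The mRNAs for origin recognition diverged widely within the complex. ORC1, the ATPase that completes the complex in G1 (ENSG00000085840, chromosome 1, 52372829 to 52404423, build hg38), had 255 reads in the LC3B pull-down, 0 in the IgG pull-down, and 196 and 159 in the LC3B and IgG inputs. ORC2, a core subunit (ENSG00000115942, chromosome 2, 200908977 to 200963680), had 291, 1, 312 and 339 reads in the same libraries. In the deposited counts both were thus near their input level with LC3B and almost absent with IgG. A gene overlapping ORC2, which limits its values, is given further on. Set against a floor of 3 reads, ORC1 was at least 80.5-fold higher with LC3B than with IgG, while its 95% counting interval began at 65.0, and ORC2 was higher with a fold of 276 (49.1 to 10920). ORC3 (ENSG00000135336, chromosome 6, 87590067 to 87667453), which binds ORC2 in the complex, went the other way. It had 427 reads with LC3B and 1093 in the IgG pull-down, against 735 and 741 in the LC3B and IgG inputs, and a fold of 0.370 (0.330 to 0.414) between the pull-downs. ORC4, another ATPase subunit, had a fold of 1.34 (1.24 to 1.43), ORC5 of 0.621 (0.549 to 0.703) and ORC6, the smallest subunit, of 0.976 (0.882 to 1.08), and none of these was called. ORC6 was the most abundant ORC mRNA in the inputs in CPM, with 775 reads in the LC3B pull-down, 752 in the IgG pull-down, and 1199 and 1180 in the LC3B and IgG inputs.

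The loading factors also differed from gene to gene. CDT1, which brings the helicase to the origin (ENSG00000167513, chromosome 16, 88803789 to 88809258), had 405 and 9 reads in the LC3B and IgG pull-downs, against 209 and 266 in the LC3B and IgG inputs. Its fold between the pull-downs was 42.6 (22.2 to 93.9). CDC6, the ATPase that works beside CDT1, had fewer reads with LC3B than with IgG. It had 2087 in the LC3B pull-down, 3361 in the IgG pull-down, and 1815 and 1794 in the LC3B and IgG inputs, with a fold of 0.588 (0.556 to 0.621), not called. GMNN, whose product geminin inhibits CDT1, had 2916, 1633, 1621 and 1434 reads in that order and a fold of 1.69 (1.59 to 1.80), not called. The inhibitor and its target thus both had more reads with LC3B than with IgG, but only CDT1 was called.

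The 6 helicase mRNAs, MCM2 to MCM7, had fewer reads with LC3B than with IgG for 4 members and folds close to 1 for MCM4 and MCM5. MCM6 (ENSG00000076003, chromosome 2, 135839626 to 135876443) had 585 reads in the LC3B pull-down, 1621 in the IgG pull-down, and 625 and 467 in the LC3B and IgG inputs. It was high in the IgG library alone, and its fold between the pull-downs was 0.342 (0.310 to 0.376), called lower. MCM2 had 957, 1610, 491 and 512 reads in the same order, a fold of 0.563 (0.519 to 0.610) that was not called. MCM3 stood at 0.695 (0.651 to 0.742), MCM7 at 0.841 (0.798 to 0.886), MCM4 at 1.05 (0.980 to 1.12) and MCM5 at 1.04 (0.967 to 1.11). MCM4 had the most reads of the 6 in the inputs, with 1796 in the LC3B pull-down, 1621 in the IgG pull-down, and 1968 and 1886 in the LC3B and IgG inputs. Of the MCM genes outside the ring, MCM8, a helicase of recombination, was among the rarest members with 143, 99, 121 and 86 reads. MCM10, which helps to activate the helicase, had 555, 400, 619 and 544 reads. Neither was called in any comparison.

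Among the factors that fire the origin, GINS1 stood apart. GINS1, a subunit of the GINS complex (ENSG00000101003, chromosome 20, 25407673 to 25452628), had 378 reads in the LC3B pull-down, 0 in the IgG pull-down, and 567 and 536 in the LC3B and IgG inputs. Set against 3 reads, it was at least 119-fold higher with LC3B than with IgG, with a counting interval from 96.6 upwards. By the same floor it was at least 209-fold lower in the IgG pull-down relative to the input, where the interval of the fold ended at 0.00591. With LC3B, GINS1 was also below its input, at a fold of 0.549 (0.481 to 0.626), not called. Its partner subunits were read in all libraries: GINS2 had a fold between the pull-downs of 0.710 (0.663 to 0.760), GINS3 of 2.05 (1.71 to 2.46) and GINS4 of 2.26 (1.98 to 2.59), and none was called, except GINS4 with chromosome MT in the totals. GINS2 was the most abundant GINS mRNA, with 1454, 1939, 1129 and 1131 reads in the order above. CDC45, the third part of the active helicase, had 1723, 1181, 927 and 908 reads and a fold of 1.38 (1.28 to 1.49). The kinase CDC7 had 365 reads in the LC3B pull-down, 686 in the IgG pull-down, and 612 and 638 in the LC3B and IgG inputs, so that the LC3B library was the low one, with a fold of 0.504 (0.442 to 0.573) that was not called. DBF4, its activator, had 849, 570, 1214 and 1175 reads, fewer in both pull-downs than in their inputs. With IgG relative to input its fold of 0.415 (0.375 to 0.459) was called lower, but not with chromosome MT in the totals.

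In the polymerase alpha and primase complex, 2 of the 4 mRNAs were thin in the IgG pull-down. POLA2, its regulatory subunit (ENSG00000014138, chromosome 11, 65261920 to 65305589), had 753 and 34 reads in the LC3B and IgG pull-downs, against 315 and 373 in the LC3B and IgG inputs. PRIM2, the large primase subunit (ENSG00000146143, chromosome 6, 57314805 to 57646850), had 414, 86, 704 and 598 reads in that order. Their folds between the pull-downs were 21.0 (14.9 to 30.5) and 4.56 (3.61 to 5.82), both called higher, although PRIM2 was below its input in both pull-downs. The catalytic subunit POLA1 had only 117 and 137 reads in the LC3B and IgG pull-downs, against 140 and 129 in the inputs, and a fold of 0.809 (0.626 to 1.04). PRIM1, the catalytic primase subunit, was the most abundant of the 4, with 1323, 1160, 1692 and 1685 reads and a fold of 1.08 (0.997 to 1.17).

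In the leading-strand polymerase epsilon the subunits also parted. POLE, the catalytic subunit (ENSG00000177084, chromosome 12, 132623753 to 132687376), was a rare mRNA with 128 reads in the LC3B pull-down, 1 in the IgG pull-down, and 129 and 80 in the LC3B and IgG inputs. Its fold between the pull-downs was 121 (21.4 to 4824). POLE2, the accessory subunit, had 331, 465, 743 and 835 reads. It was called lower in the LC3B pull-down relative to input, at 0.367 (0.321 to 0.418), whereas 0.476 (0.424 to 0.534) for IgG over its input was not called. POLE3, the histone-fold subunit, had 1254, 1369, 1786 and 1812 reads and was not called.

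The mRNAs of polymerase delta, which extends the lagging strand, had folds below 1 between the pull-downs, none of them called. POLD2, an accessory subunit, had 3359 reads in the LC3B pull-down, 5610 in the IgG pull-down, and 2156 and 2242 in the LC3B and IgG inputs. It was the member with the most reads in the IgG library, and it was called higher there than in its input, at 2.14 (2.04 to 2.25). The fold of POLD2 between the pull-downs was 0.567 (0.543 to 0.592), not called. POLD1, the catalytic subunit, had a fold of 0.745 (0.667 to 0.832). POLD3, an accessory subunit, had 402, 426, 765 and 673 reads. Its fold over the LC3B input was 0.433 (0.382 to 0.489), called lower, and that over the IgG input 0.541 (0.478 to 0.612). POLE2 and POLD3 both lost their calls with chromosome MT in the totals.

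Clamp and loader mRNAs ranged from even to called. PCNA, the sliding clamp, had 3125 reads in the LC3B pull-down, 2868 in the IgG pull-down, and 2497 and 2319 in the LC3B and IgG inputs, a fold of 1.03 (0.980 to 1.09) between the pull-downs. RFC1, the large loader subunit, had 617 and 171 reads in the LC3B and IgG pull-downs, against 800 and 892 in the inputs, and a fold of 3.42 (2.88 to 4.07), called higher. RFC4 had 3221 and 1420 reads in the LC3B and IgG pull-downs, against 1299 and 1143 in the inputs, and a fold of 2.15 (2.02 to 2.29), also called. RFC1 was low in the IgG library and also below its input with LC3B, at 0.635 (0.571 to 0.706), not called. RFC4, in contrast, was high in the LC3B library. RFC2 had a fold of 0.546 (0.504 to 0.590), RFC3 of 1.09 (0.960 to 1.24) and RFC5 of 0.899 (0.826 to 0.979), and none was called.

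RPA1, the large subunit of the single-strand binding protein, had 716 reads in the LC3B pull-down, 284 in the IgG pull-down, and 532 and 445 in the LC3B and IgG inputs. Its fold of 2.39 (2.08 to 2.75) was called higher. RFC4 and RPA1 lost this call with TMM and with median-of-ratios scaling. RPA2 and RPA3 were even between the pull-downs, at 0.979 (0.909 to 1.05) and 0.993 (0.938 to 1.05), and RPA3 had 2459, 2345, 2258 and 2412 reads. FEN1, the flap nuclease of Okazaki fragments, had 3102 and 3151 reads in the LC3B and IgG pull-downs, against 1485 and 1377 in the inputs. FEN1 was thus above input in both pull-downs, at 1.72 (1.62 to 1.83) with LC3B and 1.96 (1.84 to 2.09) with IgG, and not called. LIG1, the ligase that seals the fragments, had a fold of 1.93 (1.71 to 2.18) between the pull-downs, not called.

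The fork protection mRNAs TIMELESS, TIPIN and CLSPN were not called in any comparison. TIMELESS had a fold of 1.96 (1.70 to 2.25) between the pull-downs, its partner TIPIN of 0.856 (0.749 to 0.978) and CLSPN, the checkpoint mediator claspin, of 0.803 (0.722 to 0.893). CLSPN had 649 reads in the LC3B pull-down, 765 in the IgG pull-down, and 975 and 1019 in the LC3B and IgG inputs. RRM2, the S-phase subunit of ribonucleotide reductase, had the most reads of all members in both inputs. It had 5240 reads in the LC3B pull-down, 3211 in the IgG pull-down, and 5290 and 5266 in the LC3B and IgG inputs, and a fold of 1.55 (1.48 to 1.62) between the pull-downs. For RRM1, the large subunit, it was 1.32 (1.23 to 1.41). No call was made for either.

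Reads were also summed over each of 14 complexes, whose folds are averages weighted towards the abundant subunits. Between the pull-downs no complex was called. Polymerase alpha and primase were highest, at 1.74 (1.63 to 1.86), with 251 CPM in the LC3B pull-down and 144 CPM in the IgG pull-down. Ribonucleotide reductase followed at 1.48 (1.42 to 1.53), and polymerase delta was lowest at 0.607 (0.584 to 0.630), with 418 and 689 CPM. The MCM2-7 helicase stood at 0.760 (0.739 to 0.781), with 897 and 1181 CPM. ORC came to 393 CPM with LC3B and 392 CPM with IgG, although its subunits ranged from ORC3 at 0.370 to ORC1 without any IgG read. In the pull-downs over their own inputs, Okazaki fragment mRNAs had folds of 1.72 (1.63 to 1.82) with LC3B and 1.66 (1.57 to 1.76) with IgG. CDC7 kinase mRNAs had 0.547 (0.509 to 0.589) and 0.593 (0.551 to 0.637), and polymerase epsilon mRNAs 0.531 (0.499 to 0.564) and 0.576 (0.542 to 0.611). These sums cover members that differed. LIG1 stood at 1.72 (1.53 to 1.95) with LC3B and 0.768 (0.670 to 0.880) with IgG relative to input, CDC7 at 0.491 (0.430 to 0.560) and 0.920 (0.825 to 1.03), and POLE at 0.817 (0.635 to 1.05) and 0.0107. Polymerase alpha and primase stood at 0.435 (0.408 to 0.464) with IgG relative to input, called lower except with chromosome MT in the totals, and at 0.753 (0.714 to 0.794) with LC3B.

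**Figure D3:**
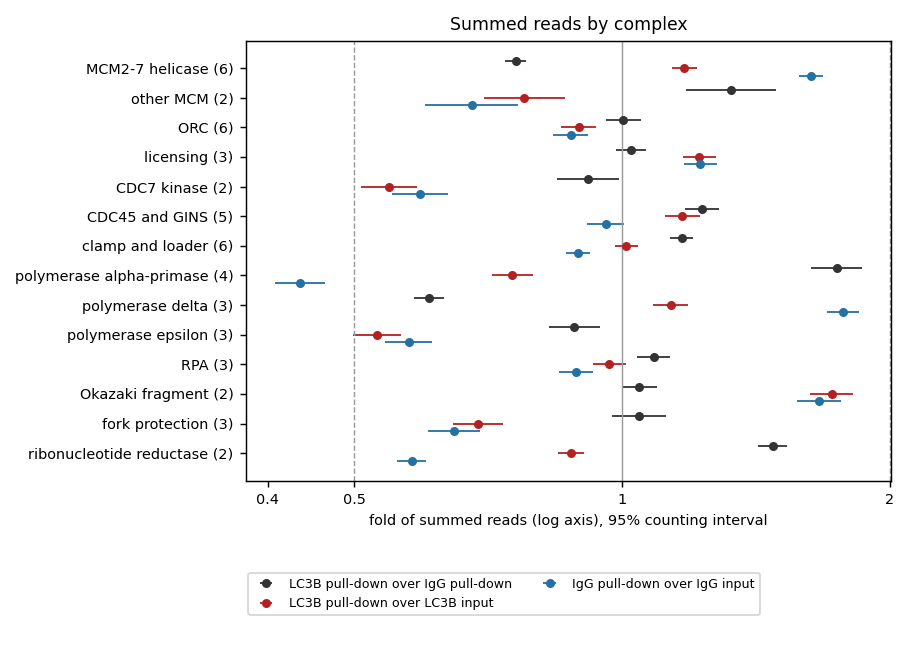
Fold of the summed reads of each complex on a log axis, with 95% counting intervals and the number of genes in brackets; black points are LC3B over IgG pull-down, red and blue are the LC3B and IgG pull-downs over their own inputs, and dashed lines mark 0.5 and 2. Only the blue interval of polymerase alpha-primase (0.408 to 0.464) lies wholly beyond a dashed line.

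Relative to its own input, the LC3B pull-down held most replication mRNAs between folds of 0.5 and 2, as it did most genes. Of the 50 members 0 were called higher (1.4% of all genes) and 2 were called lower, POLD3 and POLE2 (4%, against 4.48% of all genes). Both were among the 22 members at 30 to 100 CPM in the inputs, where 6.76% of genes were called lower. At 100 CPM and over it was 0 of 23 members, against 10.3% of genes. The members' folds ran from 0.367 for POLE2 to 2.08 (1.78 to 2.44) for POLD1, and 43 lay between 0.5 and 2, as did 80.9% of all genes. Of the members, 9 lay above their range between the inputs (0.635 to 1.59) and 14 below it, against 18.1% and 20.9% of all genes. The IgG pull-down was more uneven. There 3 members were called higher than in the input (6%, against 9.69% of all genes), namely MCM6 at 2.97 (2.68 to 3.30), MCM2 at 2.69 (2.43 to 2.98) and POLD2. By class of input level, these were 0 of 5 members at 10 to 30 CPM, against 8.86% of genes. At 30 to 100 CPM they were 2 of 22, against 5.92%, and at 100 CPM and over 1 of 23, against 3.65%. Another 9 were called lower (18%, against 33.6%), with ORC1 at least 62.0-fold lower against the floor of 3 reads (interval up to 0.0201), ORC2 at 0.00252 (6.37e-05 to 0.0142), POLE at 0.0107 (0.000267 to 0.0613) and CDT1 at 0.0289 (0.0131 to 0.0558). POLA2 stood at 0.0780 (0.0532 to 0.111), PRIM2 at 0.123 (0.0970 to 0.154), RFC1 at 0.164 (0.138 to 0.193), and GINS1 and DBF4 completed the 9. Between 0.5 and 2 lay 37 members, and 45.6% of all genes.

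**Figure D4:**
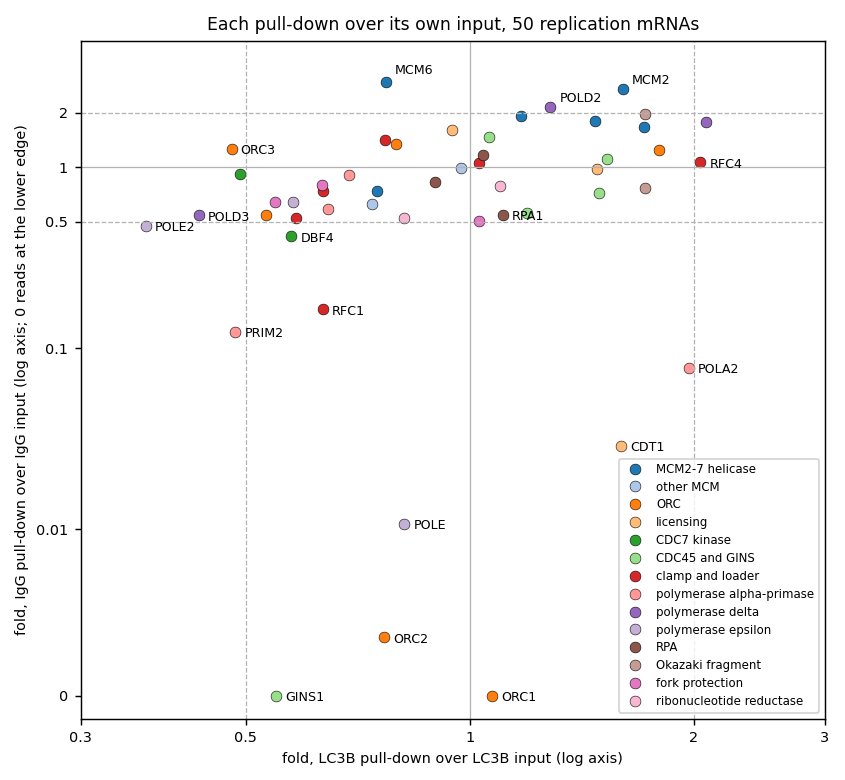
Fold of each mRNA over the matching input with LC3B (horizontal) and with IgG (vertical), both on log axes, coloured by complex; named genes were called in at least 1 pull-down comparison. The vertical range is far wider: 8 named genes lie below 0.2 in the IgG pull-down, while every LC3B fold lies between 0.367 and 2.08.

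Members that were scarce in the inputs were more often depleted in the IgG pull-down, and the same held for all genes. At 10 to 30 CPM in the inputs, 3 of 5 members were called lower with IgG relative to input, against 35.9% of 3568 genes. At 30 to 100 CPM it was 5 of 22 members, against 22.7% of 3580 genes, and at 100 CPM and over it was 1 of 23 members, against 12.4% of 2301 genes. Genes with 0 reads in the IgG pull-down made up 16.5%, 2.85% and 0% of these classes, and included 1, 1 and 0 members. The part that the many genes without reads in the IgG library have in the members' calls was not tested. Of the 10 members called higher with LC3B than with IgG, RFC4 had the highest fold over its LC3B input, at 2.04 (1.91 to 2.18), followed by POLA2 at 1.97 (1.72 to 2.25).

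An input-corrected ratio set each LC3B enrichment over input against the matching IgG enrichment, with 0.5 added to each count. By it 8 members were called higher (16%, against 29.1% of all genes) and 2 lower (4%, against 7.58%). All genes include those below 10 CPM in the inputs, where no member lay. There 56.3% (1 to 3 CPM) and 36.7% (3 to 10 CPM) had 0 reads with IgG, and shares by abundance were not taken for this ratio. CDT1 had a ratio of 52.3 (26.8 to 102), POLA2 of 24.9 (17.1 to 36.1), PRIM2 of 3.92 (3.03 to 5.06) and RFC1 of 3.86 (3.18 to 4.69). ORC1, ORC2, GINS1 and POLE, with 0 or 1 read in the IgG pull-down, were the other 4. MCM6 had a ratio of 0.260 (0.223 to 0.303) and ORC3 of 0.379 (0.326 to 0.441), both called lower. RFC4 at 1.92 (1.74 to 2.12) and RPA1 at 2.03 (1.68 to 2.44) were not called.

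Levels of different genes can be compared only per transcript length, which the deposited TPM values allow within a library. In the inputs RPA3 was highest, at 544 TPM in the LC3B input and 585 TPM in the IgG input. RRM2 followed with 401 and 392 TPM, PCNA with 226 and 205, POLD2 with 158 and 171, and GMNN with 158 and 138 TPM. The lowest were MCM8 with 2.27 and 1.72 TPM, POLA1 with 2.60 and 2.34, POLE with 6.61 and 3.30, and ORC1 with 6.56 and 5.22 TPM. Subunits of one complex differed by far more than the inputs did. For example, RPA1 stood at 23.8 and 20.7 TPM in the LC3B and IgG inputs, far below RPA3. Within the helicase ring MCM6, with 17.7 and 12.6 TPM, and MCM2, with 16.3 and 15.3 TPM, were the lowest. MCM4 had 71.2 and 81.2 TPM, and the order of MCM4 and MCM7 (74.7 and 65.8 TPM) changed between the inputs.

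Folds taken from TPM departed from those of the counts for several members. On TPM rescaled without chromosome MT, the fold between the pull-downs differed by more than 1.5 times from the count fold for 7 members. It was 4.81 for POLA2, 48.3 for ORC2 and 50.6 for POLE, and these stayed above 2, whereas RFC1 at 1.5, RPA1 at 1.33 and ORC3 at 0.663 no longer passed a fold of 2 or 0.5. The seventh, POLD1, stood at 0.402. Gene overlap is a further limit. For 15 members a gene overlapping on the annotation had at least 10% as many reads, summed over the libraries. For POLA2, PRIM1 and FEN1 it lay on the same strand. It lay on the opposite strand for MCM2, MCM7, ORC4, DBF4, GINS2, GINS3, GINS4, RFC4, RFC5, POLA1, RPA1 and RPA3. POLA2 shares its locus with AP000944.5, which had 66 reads in the LC3B pull-down, 0 in the IgG pull-down, and 110 and 0 in the LC3B and IgG inputs. SMYD4, on the strand opposite to RPA1, had 153, 360, 146 and 150 reads in the same order, and EIF4A2, opposite to RFC4, had 1230, 529, 1128 and 1114 reads. Opposite to ORC2 lies AC005037.1, with 11, 43, 8 and 1 reads in that order, against 1 ORC2 read in the IgG pull-down. Summed over the libraries it had 6.68% as many reads as ORC2. Whether reads were assigned by strand is not given in the sources used here. The values of ORC2 and of the members with an overlap on the opposite strand are therefore uncertain. For POLA2, PRIM1 and FEN1 assignment by strand would not separate the overlapping genes, so their values are uncertain either way. Pseudogenes named for a member had at most 12 reads in any library.

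Of 37 further replication genes outside the list, all passed the filter. They had 10 CPM or more in the inputs, where calls higher with LC3B than with IgG were rarer than among scarcer genes. With LC3B relative to IgG 6 of the 37 were called higher (16.2%, against 33.8% of all genes) and 2 lower (5.41%, against 9.45%). The higher ones included both large subunits of the histone chaperone CAF-1, CHAF1B at 72.2 (27.9 to 267) and CHAF1A at 7.30 (5.71 to 9.45), and ATAD5, which unloads the clamp, at 7.81 (4.90 to 13.1). TOPBP1, a helicase assembly and checkpoint factor, was at 3.22 (2.51 to 4.17), SAMHD1, a deoxynucleotide hydrolase, at 2.74 (2.20 to 3.45) and RRM2B, another reductase subunit, at 2.43 (2.08 to 2.84). The lower ones were MCM9, the partner of MCM8, at 0.235 (0.188 to 0.292) and DNA2, a nuclease and helicase, at 0.318 (0.265 to 0.381). Among all genes, calls lower than the LC3B input made up 2.91% at 10 to 30 CPM in the inputs. Such calls rose to 6.76% at 30 to 100 CPM and 10.3% at 100 CPM and over. Over the LC3B input 0 of the 37 were higher (1.4% of all genes) and 7 were lower (18.9%, against 4.48%). These were DNA2 at 0.289 (0.240 to 0.346), TOPBP1 at 0.354 (0.307 to 0.409), ATAD5, RRM2B, DSCC1, RNASEH2B and TOP2A, the last, a topoisomerase, at 0.458 (0.432 to 0.487). Over the IgG input 3 were higher (8.11%, against 9.69%), MCM9 at 2.67 (2.19 to 3.27), CHTF18 at 2.50 (2.16 to 2.91) and the thymidine kinase TK1 at 2.12 (2.02 to 2.22), and 7 were lower (18.9%, against 33.6%), led by CHAF1B with 4 reads in the IgG pull-down and 202 in its input.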

How the data were processed

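The authors deposited raw read counts per Ensembl gene and TPM values, per the file headers, for 1 LC3B pull-down, 1 IgG pull-down and their inputs. Cutadapt 2.8, STAR 2.7.1a and build hg38 are named in the submitters' processing notes; for the counting tool, annotation release and strand setting nothing is stated in these sources. Commas grouping digits were removed, after which every count was whole. Groups came from the sample titles. Counts were divided by each library's total outside chromosome MT and kept at a mean of at least 1 CPM. Folds carry exact conditional binomial (Clopper-Pearson) 95% intervals, median log2 ratios a pseudocount of 0.5 CPM, and a gene without reads a bound from 3 reads. Code ran in Python 3.11.15 with scipy 1.17.1 and was tested on simulated counts. Alternatives were other totals, filters, bounds, pseudocounts, summed inputs, thinning and deposited TPM. Counts in all 4 libraries are given for members called in a pull-down comparison and the most abundant of each complex, and for some others; every member could be named. The members and lists were chosen with earlier results of these data known.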

Additional observations from a re-analysis of the deposited data

How the results depend on the processing

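In the LC3B over the IgG pull-down, bounds of 4 and 0.25 left 6 members higher (24% of all genes) and 0 lower (2.44%), and the median log2 ratio moved to -0.079 with TMM and -0.057 with median-of-ratios totals, where that of all genes was 0.28 and 0.29. Over the LC3B input, totals with chromosome MT gave 5 members higher (5.83% of all genes) and 0 lower (1.66%) and a median of 0.21, with 0.32 for all genes. Bounds of 4 and 0.25 gave 0 lower (0.227%), point folds without interval 2 higher (7.94%) and 5 lower (11%), and TPM with point folds 8 lower (14%). Both inputs summed gave 1 higher, RFC4 (1.76%), and 1 lower, POLE2 (4.59%). Over the IgG input, totals with chromosome MT gave 6 higher (15.6%) and a median of -0.018, bounds of 4 and 0.25 gave 0 higher (2.37%), and TPM with point folds 14 lower (39.7%). With chromosome MT in the totals, MCM2-7, polymerase delta and Okazaki fragment mRNAs were also called higher over the IgG input, Okazaki fragment mRNAs over the LC3B input, and polymerase alpha-primase lost its call over the IgG input. That scaling raises folds over input by construction, because mitochondrial reads take a far larger share of the inputs. Thinning to the smallest total left the same 10 members higher and the same 2 lower between the pull-downs. Leaving out the filter or setting it at 5 CPM could not change these calls. Calls were made gene by gene, and all members passed either filter. No called member or complex changed direction under the other totals tried, and none could have. Those totals were 0.957 to 1.30 times the main ones, too small a change to carry a called fold past 1. Counts of 0 and 1 read in the IgG pull-down limit ORC1, GINS1, ORC2 and POLE to a bound or a wide interval. No paired analysis was possible because each group holds 1 library.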
